A study of Mus musculus with 8 samples.

Results

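miR-122 and miR-802 are microRNAs (miRNAs, small RNAs that repress the messenger RNAs they pair with) found mainly in hepatocytes, the parenchymal cells of the liver. Their 2 assays were taken by name from the 381 listed on a TaqMan Rodent MicroRNA A array card, a plate that runs one quantitative PCR per miRNA. The pair was chosen by the measured fold changes against untreated liver during carbon tetrachloride (CCl4) exposure, which were known to be unlike, so their changes are described here with no test. The cards were run on total RNA of whole liver from female C57/BL6 mice that were 4 weeks old at the start. The 4 groups were untreated mice, which received no CCl4, and mice injected intraperitoneally with CCl4 in corn oil for 1, 4 or 8 weeks. The labels give the dose as 1 mg/kg biweekly, while the methods state a volume per weight and 2 injections a week. There were 2 cards for each group. The labels do not say that replicate cards came from separate mice, so the spread given here may be technical, and the design text counts more mice at some times than there are samples. No oil-injected control group is labelled and age at collection is not given, so time on CCl4, age and the injections cannot be told apart.

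miR-122 is the most abundant miRNA of hepatocytes, and its loss in mouse liver is known to disturb lipid metabolism and to lead to steatosis and fibrosis. miR-802 is also enriched in liver and is known to rise in obesity. CCl4 is turned into a reactive radical by cytochrome P450 in the hepatocytes around the central veins, which die, and repeated dosing produces inflammation and scarring. In whole tissue, fewer hepatocytes and less of a miRNA in each hepatocyte cannot be told apart.

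The mature 5p sequence of miR-802 is shown because miR-802 had the lowest fold change of the tested assays at 4 and 8 weeks. It lies at chr16:93369737-93369758 on the plus strand of GRCm38.p6, within the Mir802 hairpin, which overlaps 0 other RefSeq genes and has the long non-coding RNA genes 1810053B23Rik and 1700029J03Rik as neighbours. The assay names used here give no arm. For miR-802 and the other miRNAs whose sequences are given, the arm was taken from common use of the name without a suffix and not from an assay annotation. Capitals mark the seed, bases 2 to 8, which is the stretch that pairs with target messenger RNAs. The sequences here are those of RefSeq, in which 12 of the 14 mature miRNAs looked up had an entry.
miR-802-5p: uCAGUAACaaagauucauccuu
Of 1679 mature miRNA names in that table, 1 carries the seed CAGUAAC, which is that of miR-802-5p itself.

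Each measurement is a threshold cycle (Ct), the PCR cycle at which a product crosses a fixed brightness, so that 1 cycle fewer stands for about a doubling of the template. Of the 381 assays, between 193 and 235 gave a Ct on a given card, 168 did so on all 8 cards, and 166 were tested across cards. miR-122 and miR-802 were determined on every card. miR-122 was among the earliest assays, ranking between 3 and 18 from the lowest Ct among the 166 on a card, and miR-802 ranked between 78 and 140. The mean Ct of the 149 assays below Ct 35 on every card differed by 0.354 between the untreated replicates and by 0.168 between the 1-week replicates, but by 1.52 between the 4-week and 1.40 between the 8-week replicates. Those replicate pairs at 4 and 8 weeks therefore stood apart in overall Ct. The centred value used below is this card mean minus the Ct of the assay, a log2 scale on which a higher value is a higher level.

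On the untreated cards miR-122 crossed threshold at Ct 21.95 and 22.39. At 1 week of CCl4 the Ct values were 24.16 and 23.60. They were 22.80 and 23.69 after 4 weeks, and 21.97 and 22.22 after 8 weeks. In raw cycles both 1-week cards and both 4-week cards were later than both untreated cards, whereas the 8-week cards lay within the untreated range.

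miR-802 was detected at Ct 29.06 and 28.46 in untreated liver. It needed 30.96 and 31.02 cycles after 1 week of CCl4. It was latest after 4 weeks, with Ct 31.94 and 33.84, and the 8-week cards read 30.03 and 31.59. All 6 cards of CCl4-treated liver were later than both untreated cards.

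After centring, the miR-122 level as a percentage of the untreated mean (the mean taken on the log2 scale) was 132% and 76.0% on the untreated cards. The 1-week cards read 38.1% and 49.9%, the 4-week cards 68.5% and 106%, and the 8-week cards 71.5% and 158%. The group means were 104% ± 39.4 for untreated liver, then 44.0% ± 8.40, 87.3% ± 26.5 and 115% ± 61.2 in order of time (SD, n = 2 cards each). Both 1-week cards lay below both untreated cards. At 4 weeks 1 card lay below the untreated range, and at 8 weeks 1 card lay below it and 1 above it.

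The corresponding miR-802 levels were 91.8% and 109% in untreated liver, 32.9% and 28.1% on the 1-week cards, 11.7% and 8.99% on the 4-week cards, and 25.8% and 23.0% on the 8-week cards. The means were 100.4% ± 12.1, 30.5% ± 3.40, 10.3% ± 1.92 and 24.4% ± 1.97 in that order (SD, n = 2 cards each). No card of any CCl4 group reached the untreated range, and no ranges of the 4 groups overlapped.

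**Figure D1:**
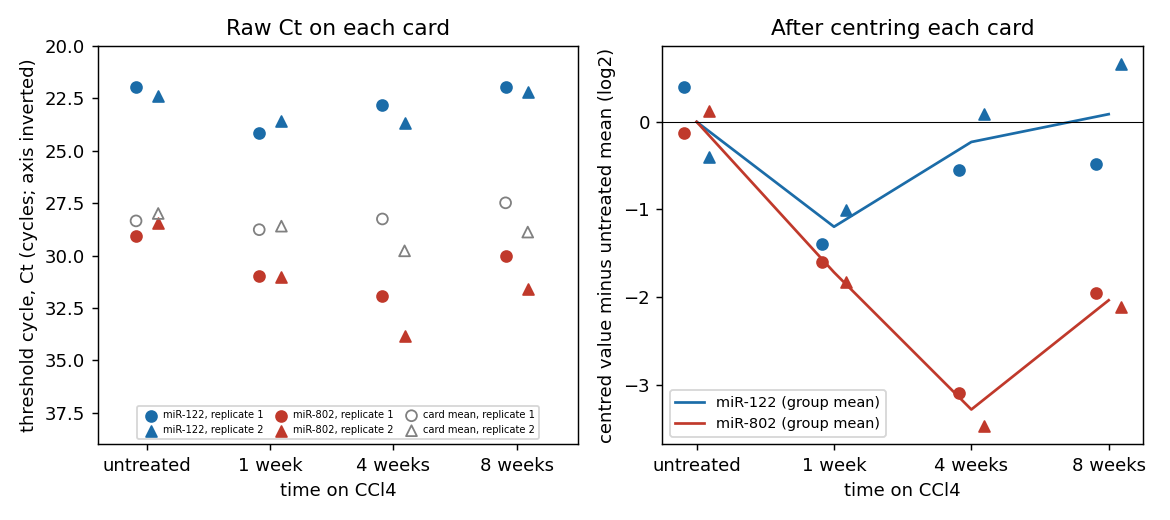
Left, raw threshold cycle of miR-122 (blue), miR-802 (red) and the card mean over 149 assays (open grey) on each of the 8 cards, with the axis inverted so that higher is more abundant. Right, the centred value minus the untreated mean (log2), with lines through the group means of 2 cards; miR-802 is lowest at 4 weeks (10.3% of untreated) and miR-122 at 1 week (44.0%).

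In order of level, miR-122 was highest at 8 weeks, then untreated, then 4 weeks and then 1 week. The 8-week and untreated cards overlapped, as did the untreated and 4-week cards. The lower of the 4-week cards was above the higher of the 1-week cards by 0.46 on the log2 scale. The order for miR-802 was untreated, 1 week, 8 weeks and 4 weeks. Its ranges were separated by 1.48 between untreated and 1 week, by 0.12 between 1 and 8 weeks, and by 0.98 between 8 and 4 weeks. The smallest of these gaps, between 1 and 8 weeks, was below the pooled replicate SD of 0.19 for miR-802, and those 2 groups are not separated beyond that spread. Both orders are those after card-mean centring. With the control RNA U6 alone as the reference, miR-802 was in the order untreated, 8 weeks, 4 weeks and 1 week. With 3 control RNAs or no normalization its 8-week mean was above that at 1 week. With the control RNA snoRNA202 alone, miR-122 was not lowest at 1 week.

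The 2 miRNAs differed in how well replicate cards matched. For miR-802 the raw Ct of replicate cards differed by 0.60, 0.06, 1.90 and 1.56 cycles in the untreated, 1-week, 4-week and 8-week groups, and centring reduced this to 0.25, 0.23, 0.38 and 0.17. For miR-122 the raw differences were 0.44, 0.56, 0.89 and 0.25, and after centring they were 0.79, 0.39, 0.63 and 1.15. The pooled replicate SD of miR-802 was rank 16 from the smallest among the 166 tested assays, and that of miR-122, at 0.56, was rank 121, beside a median of 0.39. The miR-122 values at 8 weeks thus agree in raw cycles and part after centring.

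The log2 fold change of miR-122 against untreated liver was -1.20 after 1 week, -0.23 after 4 weeks and 0.09 after 8 weeks, each with a standard error of 0.48 from the model fitted to all 8 cards. These correspond to 43.6%, 85.3% and 106% of the untreated level. The changes at 4 and 8 weeks were smaller than their standard error. The sign at 4 weeks turned without replicate 1 of the untreated group (0.17) or of the 4-week group (0.09), and that at 8 weeks turned without replicate 2 of the untreated group (-0.31) or of the 8-week group (-0.48). The 3 time points share the same 2 untreated cards.

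For miR-802 the log2 fold changes in order of time were -1.72, -3.28 and -2.04, with a standard error of 0.29. The level was 3.29-fold lower than untreated after 1 week, 9.75-fold lower after 4 weeks and 4.11-fold lower after 8 weeks. From the lowest fold change upwards, miR-802 was number 10 of the 166 tested assays at 1 week and number 1 at 4 and at 8 weeks. At 4 weeks the next assay was miR-193 at -3.22, and at 8 weeks it was miR-210 at -2.01, so the margins were smaller than the standard error of miR-802. miR-122 took numbers 25, 66 and 92 in order of time. A single value subtracted from every assay of a card leaves these ranks as they are, whereas quantile normalization, which reshapes each card, moved miR-122 to number 124 at 4 weeks and 131 at 8 weeks and miR-802 to number 2 at 8 weeks.

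**Figure D2:**
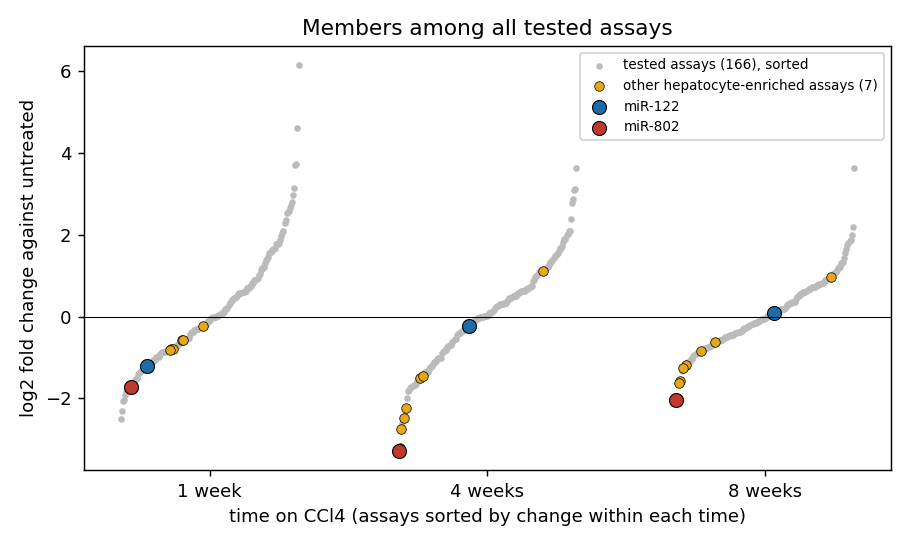
Log2 fold change against untreated liver of the 166 tested assays at each time, sorted from lowest to highest, with miR-122 (blue), miR-802 (red) and the 7 other hepatocyte-enriched assays (orange) marked. miR-802 is the lowest point at 4 and 8 weeks, and miR-122 moves from number 25 at 1 week to number 92 at 8 weeks.

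Between the times of CCl4 exposure, miR-122 was higher at 4 than at 1 week by 0.97 and higher at 8 than at 1 week by 1.29 on the log2 scale, and the 8-week level differed from the 4-week level by 0.32. With the control RNA snoRNA202 alone as the reference, the rise from 1 to 4 weeks was absent (0.20 and 0.17 against untreated). From 4 to 8 weeks miR-122 fell with quantile normalization (0.77 to 0.56) and with the control RNA U6 alone (1.27 to 1.20). After card-mean centring miR-802 went the other way from miR-122 at first. Its change from 1 to 4 weeks was -1.57, from 4 to 8 weeks it was 1.25, and from 1 to 8 weeks -0.32. Its mean at 8 weeks was thus nearer to that at 1 week than to that at 4 weeks. With U6 alone its fold changes against untreated were -4.09, -1.78 and -0.93 in order of time, a rise from 1 to 4 weeks. With snoRNA202 alone they were -0.33, -2.89 and -1.82. Under both of these references its 8-week value was nearer to that at 4 weeks.

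The Ct of miR-802 minus the Ct of miR-122 on the same card, in raw cycles, involves no centring. The untreated cards gave 7.11 and 6.07 cycles, the 1-week cards 6.80 and 7.42, the 4-week cards 9.14 and 10.15, and the 8-week cards 8.06 and 9.37. The means were 6.59 ± 0.73, 7.11 ± 0.44, 9.64 ± 0.71 and 8.71 ± 0.93 cycles (SD, n = 2 cards each). At 1 week the cards overlapped the untreated range, and at 4 and 8 weeks both cards lay above it. After centring, the log2 fold change at 1 week was -1.20 for miR-122 and -1.72 for miR-802. The difference between these was not tested. The ratio of miR-122 to miR-802 template, taking 1 cycle as a doubling, was 1.43, 8.31 and 4.36 times the untreated ratio after 1, 4 and 8 weeks. Assays can differ in efficiency, so the difference itself is no ratio of levels.

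**Figure D3:**
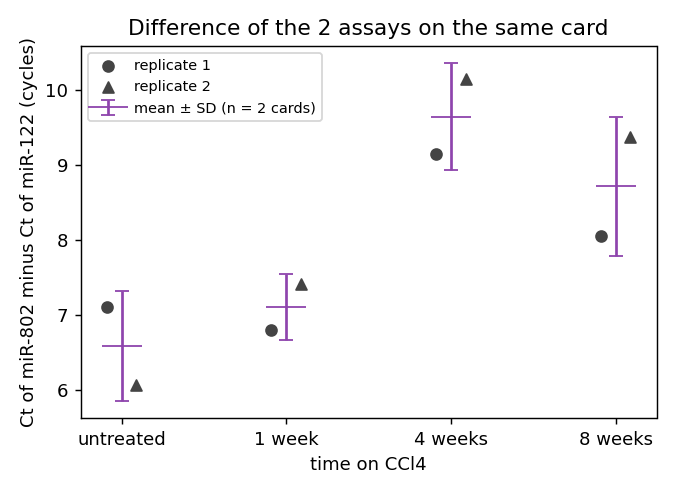
Ct of miR-802 minus Ct of miR-122 on each card (cycles), with the mean and SD of the 2 cards of each group. The cards at 4 weeks (9.14 and 10.15) and at 8 weeks (8.06 and 9.37) lie above both untreated cards, and those at 1 week overlap them.

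A single value subtracted from every assay of a card moves miR-122 and miR-802 alike. The smaller changes of miR-122 therefore turn sign more readily, and such a turn is no measure of stability. miR-802 was below untreated at all 3 times under all 11 centrings tried, including none. miR-122 at 1 week was below untreated except when the cards were set by the control RNA snoRNA202 alone (0.20), and its sign at 4 weeks turned positive with quantile normalization, with the 3 control RNAs together, and with U6 or snoRNA202 alone. The control RNAs themselves moved to unlike extents: the log2 fold change of U6, a spliceosomal RNA, was 2.38, -1.50 and -1.11 after 1, 4 and 8 weeks. That of snoRNA202, a small nucleolar RNA, was -1.39, -0.39 and -0.21. That of snoRNA135 was -0.27, -0.03 and -0.06, each smaller than its standard error of 0.30. U87 was at -1.92, -1.74 and -0.97, and Y1 at -1.28, 0.98 and 0.59. Under other centrings the sign of U87 turned at 8 weeks with U6 alone, that of Y1 turned at 1 week with snoRNA202 alone, and those of snoRNA135 and snoRNA202 turned under several.

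**Figure D4:**
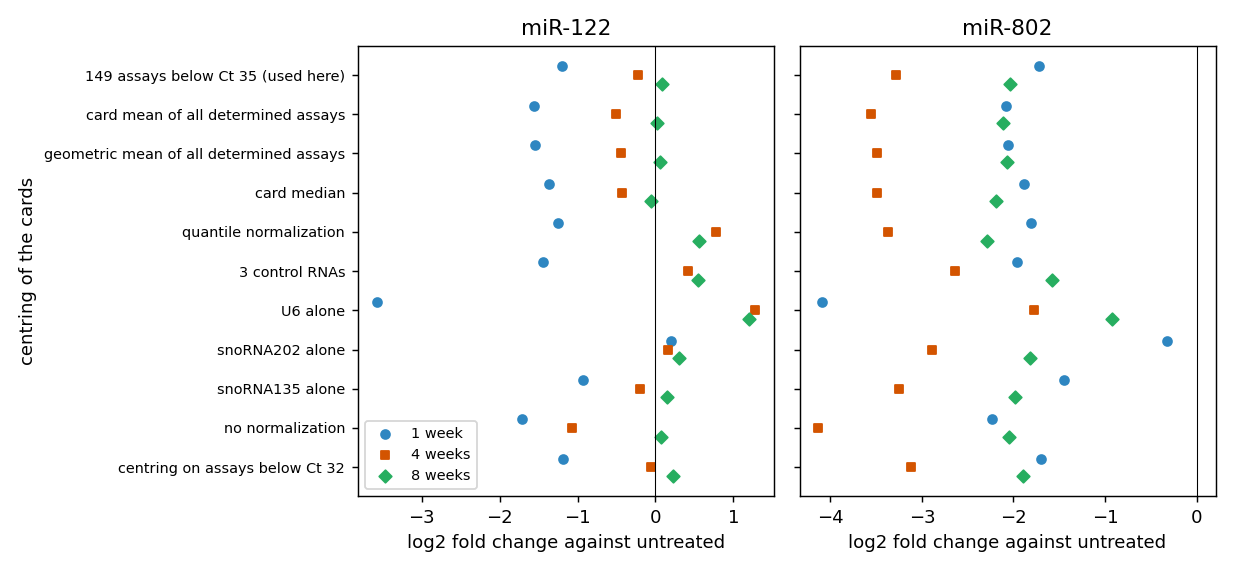
Log2 fold change of miR-122 (left) and miR-802 (right) against untreated liver at 1, 4 and 8 weeks under 11 ways of setting the cards to a common scale. Every miR-802 point lies below 0, while the miR-122 points at 4 and 8 weeks lie on both sides of it.

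Other miRNAs held to be enriched in hepatocytes were set beside the pair. The list named miR-192, miR-194, miR-148a, miR-101a, miR-101b, miR-193, miR-365 and miR-215; 7 of the 8 were matched to assays and all 7 were tested, with limma and Benjamini-Hochberg adjustment over the 166 assays. Lower levels were called for 1 of 7 after 1 week, 6 of 7 after 4 weeks and 0 of 7 after 8 weeks. Over all tested assays the shares called lower were 14.5%, 16.9% and 0.602% in order of time, and those called higher were 18.1%, 13.3% and 2.41%. The shares called lower count miR-802, which was chosen for its course, at each time, and at 8 weeks it alone makes up the share. In this limma fit 0 of the 7 were called higher against untreated, with 0, 1 and 1 at an unadjusted p under 0.05 in order of time, and miR-215 was called higher at 4 weeks under some alternatives given below. At an unadjusted p under 0.05, limma gave 5 lower and 1 higher of the 7 at 8 weeks, where 11.4% of all tested assays were lower and 12.7% higher at that threshold. The median log2 fold change of the list was -0.79, -2.23 and -1.18 at the 3 times, against -0.09, 0.03 and -0.04 for all tested assays. With U6 alone as the reference, 4 of the 7 rather than 6 were below untreated at 4 weeks, miR-148a and miR-365 being above it, and 1 was called lower. With snoRNA202 alone all 7 were above untreated at 1 week, and the single call at 1 week was lost without either untreated card or either 1-week card.

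miR-192 and miR-215 share a seed and differ in 3 of 21 bases, and miR-194 is made from the same gene clusters, Mir192 with Mir194-2 on chromosome 19 and Mir215 with Mir194-1 on chromosome 1. They are shown because the near-identical pair had log2 fold changes of opposite sign at 4 and 8 weeks, and whether those assays cross-react was not tested.
miR-192-5p: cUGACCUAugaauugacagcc
miR-215-5p: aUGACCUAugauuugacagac
miR-194-5p: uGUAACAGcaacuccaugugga
In GRCm38.p6 these are at chr19:6264857-6264877 for miR-192-5p, chr1:185313610-185313630 for miR-215-5p, and chr19:6264658-6264679 and chr1:185313325-185313346 for the 2 copies of miR-194-5p, all on the plus strand.

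The miR-192 level was 92.5% and 108% of the untreated mean in untreated liver, 67.7% and 66.3% after 1 week, 20.5% and 10.6% after 4 weeks, and 55.7% and 35.1% after 8 weeks. It fell at 4 weeks, with a log2 fold change of -2.76 and a limma adjusted p of 0.00455. For miR-194 the untreated cards gave 86.0% and 116%, the 1-week cards 60.3% and 55.2%, the 4-week cards 21.0% and 15.1%, and the 8-week cards 52.1% and 33.6%. At 4 weeks it fell, with a log2 fold change of -2.49 and a limma adjusted p of 0.00455. For both, every treated card lay below both untreated cards.

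At 4 weeks the assay for miR-193 also fell, to 16.2% and 7.08% of untreated (log2 fold change -3.22, limma adjusted p = 0.00636). Its Ct on those cards was 32.18 and 34.89, so the lower level was read close to the limit of 35. miR-101a, known for repressing the histone methyltransferase Ezh2, fell by 2.23 on the log2 scale (limma adjusted p = 0.0142). miR-148a, an abundant liver miRNA known to target DNA methyltransferase messenger RNAs, fell by 1.49 (limma adjusted p = 0.00758). miR-365 fell by 1.46 (limma adjusted p = 0.00988), and it was the assay of the list called at 1 week, with a log2 fold change of -1.19 (SE 0.29, limma adjusted p = 0.0190). Of these 4-week calls, those of miR-192 and miR-194 were lost with U6 alone, where that of miR-193 was not. That of miR-101a was lost with U6, snoRNA202 or snoRNA135 alone and without either untreated card or replicate 2 of the 4-week group, that of miR-148a with the 3 control RNAs, U6 alone, snoRNA202 alone or no normalization, and that of miR-365 with the 3 control RNAs, U6 alone, no normalization or without replicate 1 of the untreated group. miR-215 was at 306% and 154% of untreated at 4 weeks and at 231% and 169% at 8 weeks, above both untreated cards. Its log2 fold change of 1.12 at 4 weeks was not called, with a limma adjusted p of 0.0676. It was called higher with the replicate number as a block (limma adjusted p = 0.0446), with centring on assays below Ct 32 (0.0395), with the 3 control RNAs (0.0210), with U6 alone (0.0149) and without replicate 2 of the 4-week group (0.0322).

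From 1 to 4 weeks limma called 4 of the 7 lower and 1, miR-215, higher, where 25.3% of all tested assays were called lower and 21.7% higher. miR-192 changed by -2.18, miR-194 by -1.70, miR-101a by -1.67 and miR-193 by -2.42 on the log2 scale over this interval. The median of the 7 was -1.67, beside -0.03 for all tested assays. Over the 10 other scalings the calls kept their direction in 9 for miR-192 and miR-193, 7 for miR-194, 4 for miR-101a and 3 for miR-215. With U6 alone the 4 lower assays were instead called higher. Leaving out replicate 2 of the 4-week group lost the calls of miR-194, miR-193 and miR-101a, and leaving out replicate 1 of that group lost that of miR-215. Without replicate 1 of the 1-week group the calls of miR-193, miR-101a and miR-215 were lost, without replicate 2 of it those of miR-101a and miR-215, and without either untreated card that of miR-101a.

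Differences between a member and another assay of the same card, taken in raw cycles, are not moved by subtracting a value from the whole card. Relative to the 6 assays of the list other than miR-215, miR-122 was higher at 4 weeks than in untreated liver by between 1.23 (over miR-365) and 3.00 (over miR-193) log2 units, and for 6 of the 6 both cards lay above both untreated cards. At 1 week these changes were small, from -0.63 to -0.01, and for 0 of the 6 did both cards leave the untreated range. At 8 weeks they ran from 0.71 to 1.72, but both cards were above both untreated cards for 1 of the 6, miR-365. miR-122 was lower relative to miR-215 at each time, by -0.96, -1.35 and -0.90, with both cards below both untreated cards at 1 and 4 weeks. miR-215, which was above untreated at 4 and 8 weeks, was left out of the counts, so they do not cover the whole list. Of the 166 tested assays, 24, 65 and 91 had a lower fold change than miR-122 in order of time. How many of all tested assays part from miR-122 on both cards was not counted. The counts above are therefore no result about these 6 in particular.

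miR-802 was lower relative to the same 6 assays at each time. At 4 and 8 weeks miR-802 had the lowest fold change of the 166 tested assays, which sets this direction for every other assay. At 1 week 9 tested assays had a lower fold change. The lowest and highest changes of miR-802 relative to the 6 were -1.15 and -0.53 after 1 week, -1.82 and -0.06 after 4 weeks, and -1.42 and -0.40 after 8 weeks. Both cards lay below both untreated cards for 6, 5 and 4 of the 6 assays in order of time. The exceptions were miR-193 at 4 weeks and both miR-193 and miR-101a at 8 weeks. The same count was not taken over all tested assays, so it is no result about these 6 in particular. Against miR-215 the change of miR-802 was -1.48, -4.41 and -3.02.

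The similarity of courses was measured by Pearson's r over the 8 centred card values, which share cards and the card mean, and is given as a description across 165 other assays. Between miR-122 and miR-802 r was 0.03. The assays most like miR-122 were let-7e (r = 0.94), let-7a (0.94), miR-100 (0.93), let-7d (0.92) and miR-99a (0.91), and 7 assays exceeded 0.9. They come from the let-7 family, known for repressing growth genes such as Ras and Hmga2, and from the miR-99/100 family, known for repressing mTOR. Within each family the seed is the same, as the sequences show.
let-7e-5p: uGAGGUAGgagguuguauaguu
let-7a-5p: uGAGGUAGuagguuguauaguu
let-7d-5p: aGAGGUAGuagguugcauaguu
miR-100-5p: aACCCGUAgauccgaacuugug
miR-99a-5p: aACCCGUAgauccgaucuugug
These 5 were chosen by their r to miR-122 over the same cards, so their shape is set by that choice. As with miR-122, the lowest group mean of these 5 was at 1 week, with log2 fold changes of -1.50 for let-7e, -1.77 for let-7a, -0.82 for miR-100, -1.17 for let-7d and -0.85 for miR-99a. At 4 weeks they were between -0.14 (miR-99a) and 0.46 (let-7d), and at 8 weeks between -0.08 (miR-99a) and 0.51 (let-7e). With snoRNA202 alone, let-7d, miR-100 and miR-99a were above untreated at 1 week, and let-7e and let-7a were not. Assays for let-7 members that differ in a base may read each other's template, which was not tested.

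The assays most like miR-802 were miR-30b (r = 0.97), miR-194 (0.96), miR-148a (0.94), let-7g (0.94) and miR-30c (0.93), and 12 assays exceeded 0.9. Each had its lowest group mean at 4 weeks. The log2 fold change at that time was -1.15 for miR-30b, -2.49 for miR-194, -1.49 for miR-148a, -1.49 for let-7g and -1.69 for miR-30c, and with U6 alone miR-30b, miR-148a and let-7g were above untreated at that time. These 5 were picked for their likeness to miR-802 over the same cards, so their shape is set by the choice. Their root mean square distance from miR-802 over the treated cards, each assay taken against its own untreated mean, was between 0.85 (miR-194) and 1.68 (miR-30b) log2 units. The 4 of these with a RefSeq entry beside miR-802 have seeds that differ from that of miR-802.
miR-148a-3p: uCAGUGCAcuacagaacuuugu
let-7g-5p: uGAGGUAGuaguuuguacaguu
miR-30c-5p: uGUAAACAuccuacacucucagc
The seed of let-7g is that of let-7a, let-7d and let-7e, which are listed with miR-122. The let-7 assays were sorted to one or the other by their courses, and the difference between them was not tested.

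**Figure D5:**
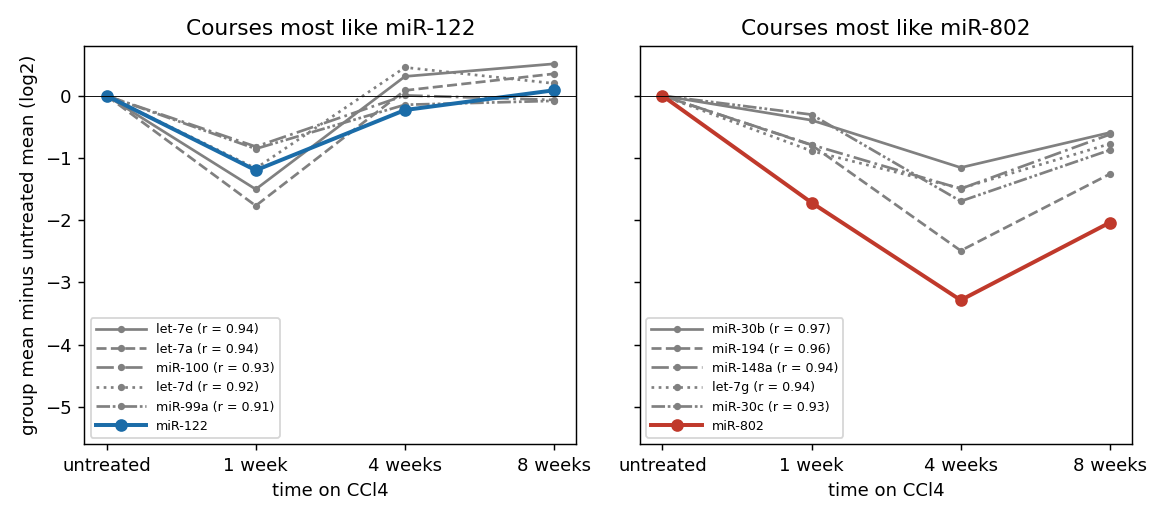
Group means minus the untreated mean (log2, 2 cards per group) of miR-122 (blue, left) and miR-802 (red, right), each with the 5 assays whose values over 8 cards correlate best with it (grey, r in the key). The miR-122 set is lowest at 1 week, and the miR-802 set at 4 weeks, where miR-802 is deeper than the other 5.

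Of the other hepatocyte-enriched assays, 6 of 7 were closer to miR-802 than to miR-122 by this measure. The same share over all tested assays was not taken, and the pair was chosen for unlike changes. The r to miR-802 was 0.92 for miR-192, 0.96 for miR-194, 0.94 for miR-148a, 0.87 for miR-101a, 0.92 for miR-193 and 0.88 for miR-365. The r of the same assays to miR-122 was -0.25, -0.19, 0.17, -0.40, -0.30 and 0.49. miR-215 was at -0.60 to miR-802 and 0.25 to miR-122.

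The levels of the 5 hepatocyte markers (miR-122, miR-192, miR-194, miR-148a and miR-802) were also summed on a linear scale, on which assays with an early Ct weigh most. The sum was between 98.2% and 102% of the untreated mean in untreated liver, between 57.5% and 59.3% after 1 week, between 34.0% and 38.2% after 4 weeks and between 59.2% and 69.4% after 8 weeks. It holds miR-122 and miR-802 themselves. The sum of the 7 other hepatocyte-enriched assays, without the pair, lay within 91.8% to 108%, 63.8% to 65.8%, 12.5% to 21.3% and 35.7% to 55.3% in the untreated, 1-week, 4-week and 8-week groups. All 5 were determined on every card, with miR-192 (mean Ct 22.6 over the 8 cards) and miR-122 (22.8) the earliest. These sums, and those of other cells below, are given after card-mean centring only, and their direction can depend on the reference. With snoRNA202 alone all 7 other hepatocyte-enriched assays were above untreated at 1 week.

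Summed levels were taken in the same way for markers of other cells. The summed level of 6 leukocyte markers (miR-223, miR-142-3p, miR-142-5p, miR-150, miR-155 and miR-146a), all 6 determined on every card, was between 74.5% and 126% in untreated liver, between 335% and 357% after 1 week, between 278% and 377% after 4 weeks and between 139% and 198% after 8 weeks. limma called 5 of the 6 higher at 1 week and 4 at 4 weeks, beside 18.1% and 13.3% of all tested assays, and 0 at 8 weeks, where 3 were higher at an unadjusted p of 0.05, beside 12.7% of all tested assays. Over the 11 centrings the leukocyte markers called higher ranged from 0 (U6 alone, no normalization) to 5 at 1 week and from 0 (no normalization) to 6 (U6 alone) at 4 weeks, and leaving out 1 card gave 2 to 5 and 2 to 3. Of all 166 tested assays, U6 alone called 2 higher at 1 week and 67 at 4 weeks, and no normalization 4 and 1. Of 5 mesenchymal markers the sum lay within 98.3% to 102%, 79.5% to 91.1%, 109% to 131% and 99.8% to 113% in the untreated, 1-week, 4-week and 8-week groups, with 1 called lower at 1 week and 2 called higher at 4 weeks, beside 14.5% and 13.3% of all tested assays. With snoRNA202 alone 4 of the 5 were called higher at 1 week, beside 80 of all 166 tested assays. With U6 alone 5 were called lower, beside 125 of the 166. Most single cards left out lost the call at 1 week and 1 of those at 4 weeks. The sum of the 2 endothelial assays, both from miR-126, lay within 82.8% to 117%, 146% to 153%, 21.2% to 36.9% and 39.2% to 69.9% in the same order, and both were called lower at 4 weeks, beside 16.9% of all tested assays. Neither was called with quantile normalization, the control RNAs together or singly, or no normalization, nor without replicate 2 of the untreated or of the 4-week group. The sum of the biliary epithelial markers was 97.4% to 103%, 109% to 123%, 60.7% to 87.1% and 55.2% to 68.7% in the same order, with miR-141 undetermined on 1 card at 8 weeks. The erythroid sum was 86.9% to 113%, 98.8% to 115%, 84.8% to 103% and 95.4% to 121.9%. limma called 0 of the 4 tested biliary and 0 of the 2 erythroid markers against untreated at any of the 3 times. At an unadjusted p of 0.05 it gave 1 of the 4 biliary markers lower at 4 weeks and 1 at 8 weeks. The shares of all tested assays lower at that threshold were 24.1% and 11.4%. It gave 0 erythroid markers. The part of these cell types in the levels of miR-122 and miR-802 was not tested.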

How the data were processed

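The cards (TaqMan Rodent MicroRNA A, v2.0) were loaded with complementary DNA made from 500 ng of whole-liver RNA, and no pre-amplification step was used. The deposited table holds the Ct values of the authors for 381 assays on 8 cards, 2 for each of 4 groups, with no normalization and with undetermined reactions marked. A deposited table of the authors' own fold changes, made with DataAssist, was not used. Depth here is the number of assays determined on a card, and the number of cards limits the precision.

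From the Ct values, each card was centred on the mean of the 149 assays below Ct 35 on every card, and the value is that mean minus the Ct (log2 scale). The 166 assays determined on all 8 cards with a mean Ct below 35 were fitted in limma 3.58.1 (R 4.3.3) with group as the only term, all cards in 1 model, two-sided, with Benjamini-Hochberg adjustment within each comparison and a threshold of 0.05. The fit was checked on simulated data with known changes. Tables and plots were made in Python 3.11.15 with pandas 2.3.3 and matplotlib 3.10.9. A comparison of 2 cards with 2 cards by an exact permutation test could not give a two-sided p below 0.333, so none was run.

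miR-122, miR-802 and every list were chosen with earlier results of these data known. Named assays were the pair, the other hepatocyte-enriched list, the 5 control RNAs, and for each of the pair the 5 tested assays with the highest Pearson r over the 8 cards. Alternatives were other centrings, quantile normalization, other filters on Ct, undetermined values set to Ct 40, another variance model, the replicate number as a block, and leaving out each card. Whether equal replicate numbers pair cards was checked by the correlation of pair differences. Mature sequences come from RefSeq (GRCm38.p6).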

Additional observations from a re-analysis of the deposited data

Results flagged for a closer look

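Among 20 named assays and 3 differences between times of CCl4 exposure, which makes 60 differences, 18 passed the limma test of the difference itself (adjusted over the 166 assays). Over all tested assays 120 of 498 such differences passed, or 24.1%, and 10 of the 20 named assays were picked for their likeness to miR-122 or miR-802. miR-122 and miR-802 were chosen for their courses and were left out. Positive values are higher at the later time, on the log2 scale.

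From 1 to 4 weeks, assays of the hepatocyte-enriched list with lower levels were miR-192 (-2.18, limma adjusted p = 0.00652), miR-194 (-1.70, limma adjusted p = 0.00903), miR-101a (-1.67, limma adjusted p = 0.0311) and miR-193 (-2.42, limma adjusted p = 0.0147). miR-30b (-0.76) and miR-30c (-1.39), whose courses were among the 5 closest to miR-802, were lower too, and let-7e (1.81), let-7a (1.85) and let-7d (1.62), which were among the 5 closest to miR-122, were higher. miR-215 was higher by 1.36. Of the control RNAs, U6 changed by -3.88, snoRNA202 by 1.00 and Y1 by 2.25.

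Of the 10 other scalings, the call from 1 to 4 weeks kept its direction in 9 for miR-192 and miR-193, 8 for let-7a, U6 and Y1, 7 for miR-194 and let-7d, 6 for let-7e, 5 for miR-30c, 4 for miR-101a and snoRNA202, 3 for miR-215 and 1 for miR-30b. With U6 alone as the reference, miR-192, miR-194, miR-101a, miR-193, miR-30b (3.12) and miR-30c (2.49) were higher at 4 than at 1 week instead of lower, and with the 3 control RNAs miR-30b was at 0.12.

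From 1 to 8 weeks, let-7e was higher by 2.02 and let-7a by 2.12, U6 changed by -3.49, snoRNA202 by 1.18 and Y1 by 1.87. Those calls kept their direction in 8 of the 10 other scalings for U6, 7 for let-7a, and 6 for let-7e, snoRNA202 and Y1. From 4 to 8 weeks 0 of the 20 passed. The let-7 and miR-30 assays were named for their likeness over these same 8 cards, so their differences are no independent evidence of a shared course.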

How the results depend on the processing

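miR-802 was below untreated at 1, 4 and 8 weeks under every centring and without each card in turn, and the sign of miR-122 turned under some of these. All centrings but quantile normalization move both assays alike, so a turn there follows from the smaller change of miR-122 and does not measure stability. The cause of the shifts below was not tested. With U6 alone miR-122 was at -3.58, 1.27 and 1.20 and miR-802 at -4.09, -1.78 and -0.93 at 1, 4 and 8 weeks. With snoRNA202 alone miR-122 was at 0.20 and 0.17 at 1 and 4 weeks, and miR-802 at -0.33, -2.89 and -1.82. With the 3 control RNAs miR-122 was at 0.41 at 4 weeks, and miR-802 at -1.96, -2.64 and -1.58. With quantile normalization miR-122 was at 0.77 at 4 weeks, miR-802 at -2.29 at 8 weeks, and the change of the within-card difference was 4.14 at 4 weeks and 2.85 at 8 weeks, against 3.06 and 2.12. With the card median miR-122 was at -0.062 at 8 weeks and miR-802 at -3.49 at 4 weeks. The card mean of all determined assays gave miR-802 -2.08 and -3.56 at 1 and 4 weeks, their geometric mean -2.06 and -3.49, and snoRNA135 alone -1.45 at 1 week. With no normalization miR-122 was at -1.07 at 4 weeks and miR-802 at -2.23 and -4.13 at 1 and 4 weeks. Leaving out each card gave miR-122 between -1.59 and -0.80, between -0.63 and 0.17, and between -0.48 and 0.66 in order of time. For miR-802 the ranges were -1.84 to -1.59, -3.47 to -3.10 and -2.16 to -1.91, and for the within-card difference 0 to 1.04, 2.54 to 3.58 and 1.47 to 2.78.

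Of the 7 other hepatocyte-enriched assays, the 1 called lower at 1 week became 2 with quantile normalization, with tested assays below Ct 32, with a variance trend and at an adjusted p of 0.10, 7 with U6 alone, and 0 with snoRNA202 alone, snoRNA135 alone and no normalization. The 6 at 4 weeks became 1 with U6 alone, 4 with the 3 control RNAs, snoRNA202 alone or no normalization and 5 with snoRNA135 alone, and the 0 at 8 weeks became 1 with the trend and at 0.10. Without 1 card the count lay between 0 and 1 after 1 week and between 4 and 6 after 4 weeks, and was 0 after 8 weeks.

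Over all tested assays limma called 54 at 1 week, 50 at 4 weeks, 5 at 8 weeks, 78 from 1 to 4 weeks, 40 from 1 to 8 weeks and 2 from 4 to 8 weeks. At 1 week U6 alone gave 127 and no normalization 5, and at 4 weeks snoRNA135 alone gave 32 and no normalization 10. At 8 weeks the mean of all determined assays, their geometric mean, snoRNA135 alone and no normalization gave 1 each, the card median and undetermined values at Ct 40 gave 2, assays below Ct 32 gave 3, U6 alone 8, the trend 11, the 3 control RNAs 12 and a threshold of 0.10 gave 15; snoRNA202 alone and the fit of only the groups compared gave 0 in limma (30 and 32 at an unadjusted p of 0.05). From 1 to 4 weeks U6 alone gave 152, no normalization 29 and undetermined values at Ct 40 gave 37. From 1 to 8 weeks U6 alone gave 154, snoRNA202 alone 82, quantile normalization 20, snoRNA135 alone 16, undetermined values at Ct 40 gave 13 and no normalization 8. From 4 to 8 weeks quantile normalization gave 9 and the threshold of 0.10 gave 6, the means, the median, the 3 control RNAs and snoRNA202 alone gave 1, and U6 alone, snoRNA135 alone, no normalization, undetermined values at Ct 40 and the fit of only the groups compared gave 0 in limma, with 9 to 25 at an unadjusted p of 0.05. Without 1 card the 6 counts ran from 15 to 59, 22 to 51, 0 to 6, 30 to 75, 4 to 49 and 0 to 1. The lowest were without replicate 1 of the untreated group at 1 week, replicate 2 of the untreated group at 4 weeks, either 8-week card at 8 weeks, replicate 2 of the 4-week group from 1 to 4 weeks, and replicate 2 of the 1-week or of the 8-week group from 1 to 8 weeks.

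The split of higher to lower calls, 30 to 24 at 1 week and 22 to 28 at 4 weeks, was 18 to 33 and 12 to 27 with the mean of all determined assays, 26 to 26 and 14 to 30 with the card median, 22 to 25 and 45 to 11 with the 3 control RNAs, 2 to 125 and 67 to 2 with U6 alone, and 80 to 0 and 26 to 11 with snoRNA202 alone. From 1 to 4 weeks the split of 36 to 42 was 72 to 20, 152 to 0 and 9 to 71 with the last 3 of these, and snoRNA135 alone gave 30 to 9 at 1 week and 19 to 38 from 1 to 4 weeks. The median of all tested assays moved from -0.09 and 0.03 to -0.45 and -0.25, -0.26 and -0.18, -0.33 and 0.67, -2.47 and 1.53, and 1.30 and 0.42 in the same order.

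Equal replicate numbers were not taken to pair the cards, since the correlation of pair differences over 166 assays was 0.43 between 4 and 8 weeks but -0.39 and -0.50 between untreated and those groups. A replicate block gave 50, 49, 4, 75, 38 and 0 calls (25 at an unadjusted p of 0.05 in the last), called miR-215 higher at 4 weeks, and left the fold changes of miR-122 and miR-802 as they were. A crossed pairing, added after seeing the data, gave 74, 65, 17, 90, 64 and 11 calls, and 4 lower at 1 week and 2 at 8 weeks in the hepatocyte-enriched list. Late Ct values limit miR-802 at 4 weeks, where 1 card read 33.84, close to the limit of 35. They also limit miR-193, which read 34.89 on the same card.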
